A study of Capra hircus with 8 samples.

Results

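Homeobox genes of the PRD-like family and the oocyte homeobox gene SEBOX were followed in goat (Capra hircus) 8-cell embryos. The genes are ARGFX, DUXA, LEUTX, OTX2 and SEBOX, taken by symbol from the messenger RNA table, so 5 of its 22107 entries are described. All 5 were found once each, and all 5 reached the level needed for testing. The series sets in vitro fertilised (IVF) embryos beside cloned embryos from somatic cell nuclear transfer (SCNT), where a body cell nucleus replaces that of the egg. Messenger RNA values cover 4 libraries, 2 replicates of IVF and 2 of SCNT embryos, all at the 8-cell stage. No drug, allele or knockdown is named for these 4 libraries, and the labels do not name the donor cell of the SCNT embryos, the number of embryos in a library or whether replicates came from separate pools. For that reason p-values here reflect only how far these libraries lie apart, which may be technical.

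PRD-like homeobox genes encode transcription factors with a homeodomain, a helical fold that grips a short stretch of DNA. ARGFX, LEUTX and DUXA are known from human embryos as genes that are silent in the egg and switch on for a short time when the embryo starts to transcribe its own genome. OTX2 is an older relative, known for its part in the epiblast and in the forming head and eye. SEBOX is made in the growing oocyte, and in the mouse its transcript is passed to the embryo as a maternal message.

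Values are FPKM, that is, fragments per kilobase of gene and per 1000000 fragments, a scale that allows genes to be compared with each other. The FPKM steps gave the relative depth of the libraries: against IVF replicate 1, IVF replicate 2 was 1.10 times as deep, SCNT replicate 1 was 1.03 times and SCNT replicate 2 was 1.04 times. With these ratios the lowest set of whole read numbers behind the 4 values of a gene could be found, and these are quoted as reads below. Counting intervals (95%, exact Poisson) cover counting error alone, since copies made by PCR are counted as separate reads. Differences are given as log2(FPKM + 1), SCNT minus IVF, from a limma fit over 10303 genes, with p-values adjusted over all of them. Over those genes 398 passed at an adjusted p under 0.05, or 3.86%, and 311 of them (3.02%) were higher and 87 (0.844%) lower in SCNT embryos. The count was 173 without IVF replicate 1, 257 without IVF replicate 2, 3834 without SCNT replicate 1 and 46 without SCNT replicate 2.

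LEUTX was the most abundant of the 5 genes in every library. IVF replicates 1 and 2 had 577 and 372 FPKM, and SCNT replicates 1 and 2 had 160 and 499 FPKM. These values rest on 7713, 5482, 2207 and 6915 reads. SCNT replicate 1 was the low library and the other 3 lay between 372 and 577 FPKM, so the groups overlapped. The means were 474 ± 145 FPKM in IVF and 329 ± 240 FPKM in SCNT (SD, n = 2 each). The log2 difference of −0.71 ± 0.56 (SE; 95% interval −1.998 to 0.58) did not pass (adjusted p = 0.418). Its sign turned without SCNT replicate 1, to 0.11. In bulk libraries, fewer cells with a transcript and less transcript per cell cannot be told apart.

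ARGFX varied mainly through IVF replicate 1. The IVF replicates had 497 and 105 FPKM and the SCNT replicates 51.4 and 88.3 FPKM, from 16641, 3891, 1777 and 3068 reads. Both SCNT values lay below both IVF values, as they did for 17.1% of tested genes, but the lower IVF library was near the upper SCNT library while the upper IVF library stood 4.72 times above its own replicate. The means were 301 ± 277 FPKM in IVF and 69.8 ± 26.1 FPKM in SCNT (SD, n = 2 each). The log2 difference of −1.75 ± 0.68 (SE; 95% interval −3.31 to −0.19) did not pass after adjustment (adjusted p = 0.128). Without IVF replicate 1 it was −0.64, and without IVF replicate 2 it was −2.86, which passed (adjusted p = 0.0279; 0.0279 to 0.822 over all alternatives).

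DUXA, which carries a pair of homeodomains, showed the same high library. It stood at 297 FPKM in IVF replicate 1 (4070 reads) and at 46.1 FPKM in IVF replicate 2 (697 reads). The SCNT libraries lay between these, at 78.8 and 74.6 FPKM (1114 and 1060 reads). The groups overlapped, and the counting intervals of the SCNT replicates (74.2 to 83.5 and 70.2 to 79.3 FPKM) overlapped as well. The means were 172 ± 178 FPKM in IVF and 76.7 ± 2.93 FPKM in SCNT (SD, n = 2 each). The log2 difference was −0.61 ± 0.75 (SE; 95% interval −2.32 to 1.10; adjusted p = 0.609), and it turned to 0.72 without IVF replicate 1.

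OTX2 was higher in both SCNT libraries. It stood at 62.5 and 65.4 FPKM in SCNT embryos (4153 and 4362 reads) and at 31.4 and 9.63 FPKM in IVF embryos (2022 and 684 reads). The groups did not overlap, and the lower SCNT library was 1.99 times the upper IVF library. Both SCNT libraries above both IVF libraries was a common pattern, seen in 46.9% of tested genes. The means were 63.9 ± 2.03 FPKM in SCNT and 20.5 ± 15.4 FPKM in IVF (SD, n = 2 each), a ratio of 3.11, which was 6.64 without IVF replicate 1 and 2.03 without IVF replicate 2. The log2 difference of 1.81 ± 0.55 (SE; 95% interval 0.54 to 3.07) did not pass after adjustment (adjusted p = 0.0790). It was 2.61 without IVF replicate 1 and 1.002 without IVF replicate 2.

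SEBOX was the one gene of the 5 that passed, beside 3.86% of all tested genes that passed and 3.02% that were called higher in SCNT. The SCNT replicates had 31.9 and 50.5 FPKM (646 and 1027 reads), and the IVF replicates had 0.663 and 3.37 FPKM (13 and 73 reads). The groups did not overlap, with both SCNT libraries above both IVF libraries, as in 46.9% of tested genes. The lower SCNT library was 9.46 times the upper IVF library. Counting intervals were 0.353 to 1.13 and 2.64 to 4.24 FPKM for IVF replicates 1 and 2, and 29.5 to 34.5 and 47.5 to 53.7 FPKM for those of SCNT. The means were 41.2 ± 13.2 FPKM in SCNT and 2.02 ± 1.92 FPKM in IVF (SD, n = 2 each), a ratio of 20.4, which was 12.2 without IVF replicate 1 and 62.1 without IVF replicate 2. SEBOX rose by a log2 difference of 3.93 ± 0.57 (SE; 95% interval 2.63 to 5.23; adjusted p = 0.0234), rank 15 among the rises of all tested genes. It was 3.23 without IVF replicate 1 and 4.63 without IVF replicate 2, and passed in both. Without SCNT replicate 2 the difference was 3.61 and the call was lost (adjusted p = 0.0850; 7.80e-05 to 0.242 over all alternatives). With a pseudocount of 5 FPKM (adjusted p = 0.0620) and without the filter on low values (0.242) it was lost as well.

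**Figure D1:**
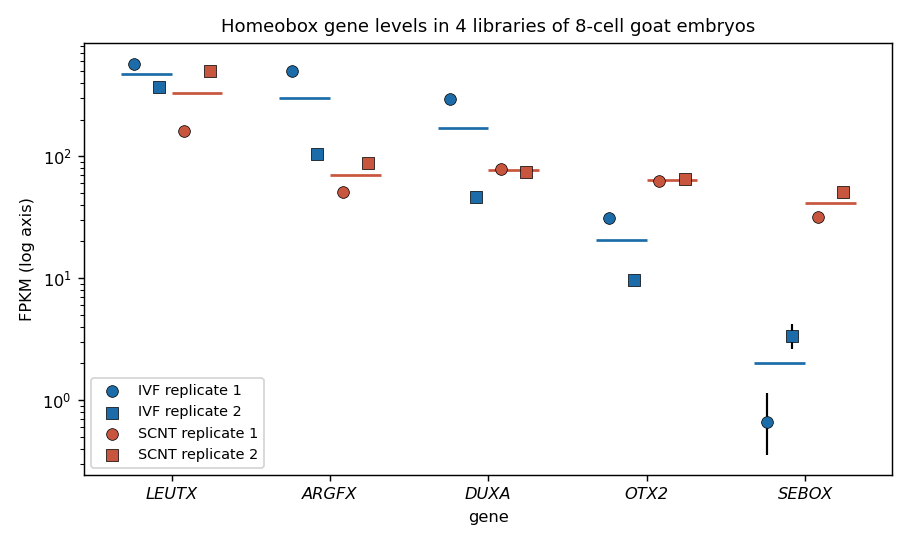
FPKM on a log axis for each of the 5 genes in each of the 4 libraries of 8-cell embryos (points, with vertical bars for the 95% counting interval where it is wider than the point, and horizontal lines for group means). SEBOX lies at 0.663 and 3.37 FPKM (IVF) and 31.9 and 50.5 FPKM (SCNT), while ARGFX and DUXA each have 1 high library, IVF replicate 1.

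**Figure D2:**
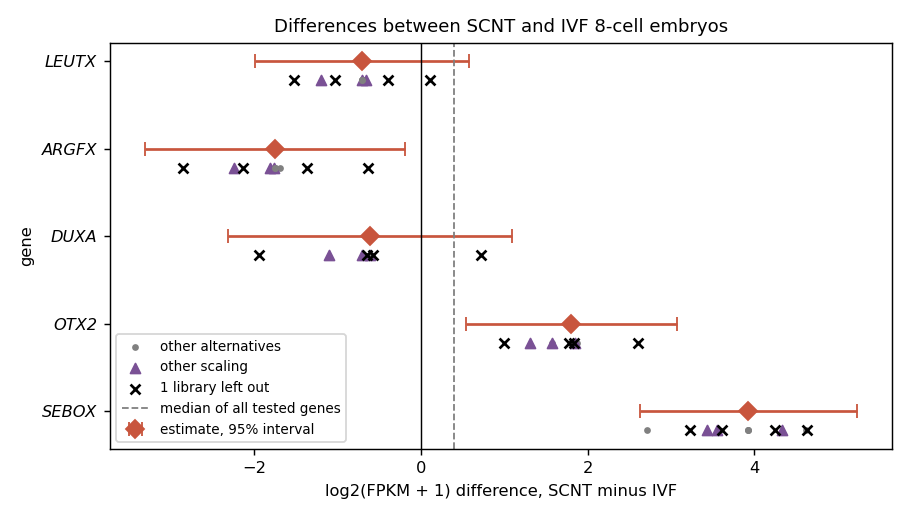
Log2(FPKM + 1) differences, SCNT minus IVF, with the 95% interval from limma (diamonds and bars), and below each the values under other scalings (triangles), with 1 library left out (crosses) and under the other alternatives (dots). LEUTX and DUXA reach across 0, ARGFX stays below 0, and OTX2 and SEBOX stay above 0 under every alternative drawn.

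The order of the 5 genes within a library was LEUTX, ARGFX, DUXA, OTX2 and SEBOX in 3 of 4 libraries. In SCNT replicate 1 the order was LEUTX, DUXA, OTX2, ARGFX and SEBOX. The ratio of LEUTX to ARGFX was 1.16 and 3.53 for IVF and 3.11 and 5.65 for SCNT, so ARGFX came nearest to LEUTX in IVF replicate 1. The ratio of OTX2 to SEBOX, by contrast, was 47.4 and 2.86 in IVF and 1.96 and 1.29 in SCNT. SEBOX made up 0.0473% and 0.629% of the summed FPKM of the 5 genes in IVF and 8.30% and 6.49% in SCNT. ARGFX, DUXA and LEUTX together held 0.330% and 0.134% of all FPKM for IVF and 0.0762% and 0.155% for SCNT.

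Ranked among all genes of a library, LEUTX was at place 87 and 142 in IVF and at 413 and 96 in SCNT. ARGFX was at 108 and 655 in IVF and at 1490 and 902 in SCNT, and DUXA at 212 and 1454 in IVF and at 957 and 1083 in SCNT. OTX2 moved from 1992 and 4097 in IVF to 1243 and 1239 in SCNT. SEBOX moved from 9970 and 6302 in IVF to 2186 and 1575 in SCNT, between 15891 and 18231 genes being above 0 per library. The 3 genome activation genes were thus within the first 1490 places in all 4 libraries, whereas SEBOX did not come nearer than 6302 in IVF embryos.

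Against 168 other homeobox and paired-box genes in the table, LEUTX had the highest mean over the 4 libraries (402 FPKM). The next was PBX3, a TALE-class partner of HOX proteins, with 192 FPKM, followed by ARGFX with 185 FPKM and DUXA with 124 FPKM. OTX2 was in place 8 (42.2 FPKM) and SEBOX in place 15 (21.6 FPKM). The order differed between the groups. By the IVF means LEUTX, ARGFX and DUXA were in places 1, 2 and 4, OTX2 in place 12 and SEBOX in place 45. By the SCNT means LEUTX was again in place 1, but ARGFX was in place 6 and DUXA in place 5, behind PBX3, LHX8 and ALX1, with OTX2 in place 7 and SEBOX in place 10. Most of the family was low: 67 of the 173 genes reached 1 FPKM in at least 2 libraries and 26 had a mean of 10 FPKM or more.

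**Figure D3:**
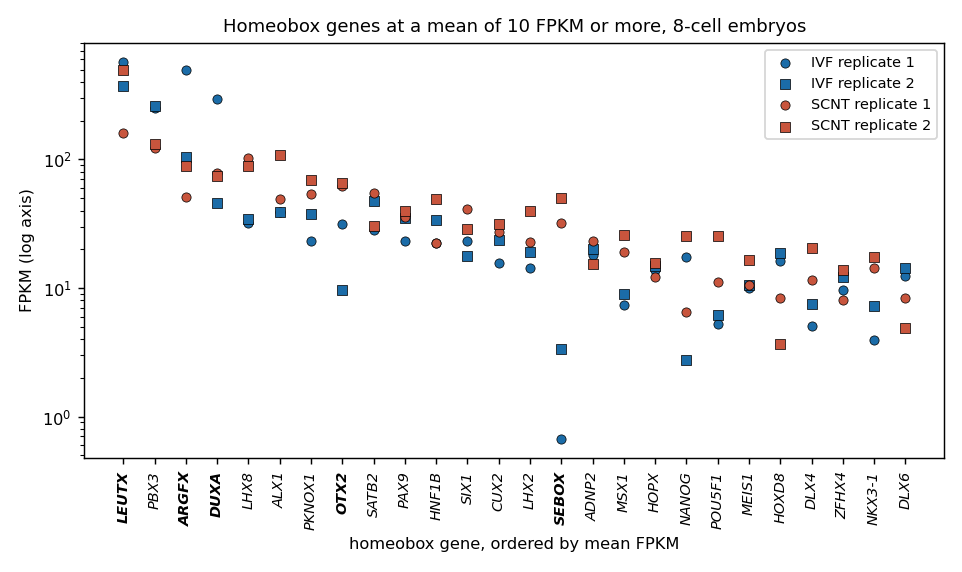
FPKM on a log axis of the 26 homeobox or paired-box genes with a mean of 10 FPKM or more, in the 4 libraries (circles, replicate 1; squares, replicate 2), ordered by mean; the 5 described genes are in bold. By the mean of all 4 libraries LEUTX, ARGFX and DUXA are in places 1, 3 and 4, but ARGFX and DUXA are in places 6 and 5 by the SCNT means alone; the SEBOX means differ 20.4 times between the groups.

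Among other paired-class genes, DPRX, a PRD-like relative of LEUTX, was listed at 0 in 3 libraries and at 0.553 FPKM in SCNT replicate 2. CRX, the retinal relative of OTX2, was listed at 0.109 FPKM in IVF replicate 1 and at 0 in the other 3. OTX1 stood at 0.982 and 0.783 FPKM (IVF) and 1.61 and 4.43 FPKM (SCNT). Of 51 listed genes 39 were in the table and 12 were tested, and 1 rose, DRGX, known from sensory neurons (0.0459 and 0.208 FPKM for IVF, 2.22 and 5.003 FPKM for SCNT; adjusted p = 0.0445). Another, the oocyte homeobox gene NOBOX, stood at 0.931 and 1.72 FPKM (IVF) and 4.60 and 10.7 FPKM (SCNT) (adjusted p = 0.0667). The median log2 difference of the 12 was 0.60, against 0.39 over all tested genes. Among homeobox genes of other classes, 1 of 50 tested rose, DLX5 (0.528 and 0.413 FPKM for IVF, 3.16 and 6.20 FPKM for SCNT; adjusted p = 0.0496), 0 fell and 49 did not pass, with a median of 0.59. Over all tested genes 3.02% were called higher, and 1 of 50 lies near that share. DRGX and DLX5 each lost the call when IVF replicate 1 (adjusted p = 0.137 and 0.170), IVF replicate 2 (0.0526 and 0.156) or SCNT replicate 2 (0.0834 and 0.0948) was left out. Both also lost it after median centring, after quantile normalization, with a pseudocount of 5 FPKM, without the filter and without the variance trend. Neither reached 1 FPKM in an IVF library, so the filter admitted them through SCNT embryos alone, which fixed the direction of their difference. With 1 FPKM required in all 4 libraries neither was tested.

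The replicate libraries of IVF embryos stood far apart at most of these genes. On the log2(FPKM + 1) scale, IVF replicate 1 exceeded replicate 2 by 2.66 at DUXA, 2.23 at ARGFX, 1.61 at OTX2 and 0.63 at LEUTX, while SEBOX was lower in replicate 1 by a gap of −1.40. Over all tested genes the median absolute gap was 0.30. Only 0.204% of them had a gap as large as DUXA, 0.456% as large as ARGFX, 1.73% as large as OTX2, 2.79% as large as SEBOX and 19.6% as large as LEUTX. Replicate 1 was above replicate 2 by more than 1 in 3 of the 5 genes, against 4.63% of tested genes, and by any amount in 4 of 5, against 44.1%. The 5 genes were chosen with earlier results of these data known, so these shares describe them and test nothing.

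The SCNT replicates showed another pattern at the same genes. SCNT replicate 2 minus replicate 1 was 1.64 at LEUTX, 0.77 at ARGFX, 0.65 at SEBOX, 0.06 at OTX2 and −0.08 at DUXA, where the median absolute gap over all tested genes was 0.63. SCNT replicate 2 was above replicate 1 by more than 1 at LEUTX alone, against 18% of tested genes, and a gap as large as that of LEUTX was seen in 6.31%. OTX2 and DUXA were among the closest genes, since 94.4% and 93.1% of tested genes had a wider gap or the same. No test between the spreads of the groups was made, with 2 libraries in each.

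**Figure D4:**
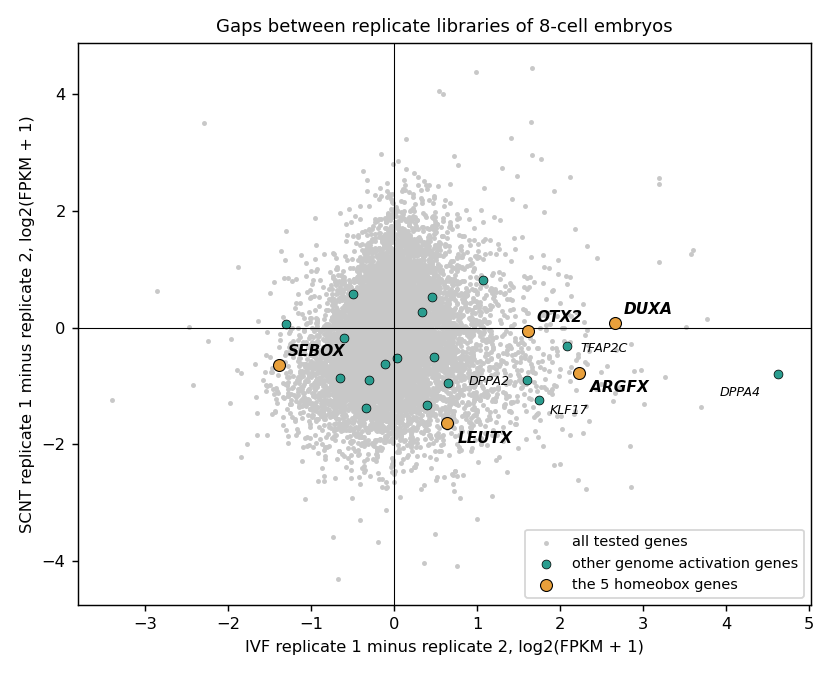
For every tested gene, the gap between IVF replicates (x axis) against the gap between SCNT replicates (y axis), both replicate 1 minus replicate 2 in log2(FPKM + 1); grey, all 10303 genes; green, other genome activation genes; orange, the 5 homeobox genes. DUXA, ARGFX and OTX2 lie far to the right with IVF gaps of 2.66, 2.23 and 1.61, as does DPPA4 with 4.62, and LEUTX lies low with the widest SCNT gap of the 5.

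Other genes known from embryonic genome activation were read from a list of 42, of which 23 were in the table and 18 were tested. One rose, SLC34A2, a phosphate transporter gene (1.01 and 1.17 FPKM for IVF, 18.3 and 28.7 FPKM for SCNT; adjusted p = 0.0223), 0 fell and 17 did not pass, where 3.02% of all tested genes rose. Its call was lost without SCNT replicate 2 (adjusted p = 0.0620), with a pseudocount of 5 FPKM (0.0620), without the filter on low values (0.242) and with 1 FPKM required in all 4 libraries (0.0705). The median log2 difference of the 18 was 0.88, against 0.39 over all tested genes.

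Between the IVF replicates, 11 of the 18 were higher in replicate 1, and 5 of them by more than 1. The widest gap was at DPPA4, a chromatin-binding gene of early embryos, at 124 and 4.06 FPKM (IVF) and 22.6 and 39.9 FPKM (SCNT). Its partner DPPA2 stood at 10.05 and 2.66 FPKM (IVF) and 1.95 and 4.48 FPKM (SCNT). The AP-2 factor gene TFAP2C stood at 23.2 and 4.70 FPKM (IVF) and 21.6 and 27.2 FPKM (SCNT). KLF17, a zinc finger gene of the early embryo, stood at 8.89 and 1.96 FPKM (IVF) and 12.9 and 31.7 FPKM (SCNT), and KLF3 was the remaining one, with an IVF gap of 1.07. These 5 were picked for that gap. MBD3L1 of the same list had a gap of −1.31, the other way, at 1.12 and 4.24 FPKM (IVF) and 0.510 and 0.445 FPKM (SCNT). None of the 5 passed between SCNT and IVF, and DPPA4 had an adjusted p of 0.889.

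Genes tied to OTX2 in the epiblast and forming head, with pluripotency factors, gave a list of 32. LIN28A was left out since its name occurs more than once, and 13 were tested. In limma 0 of them rose, against 3.02% of all tested genes. Calls of lower genes in this list are not reported here. Their median log2 difference was 0.76, beside 0.39 for all 10303 genes. NANOG, itself a homeobox gene of pluripotent cells, stood at 17.3 and 2.76 FPKM (IVF) and 6.51 and 25.3 FPKM (SCNT), with the same high IVF library as ARGFX and DUXA. POU5F1, its partner, did not share that gap, at 5.27 and 6.15 FPKM (IVF) and 11.1 and 25.5 FPKM (SCNT).

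SEBOX is an oocyte gene, and other oocyte and maternal-effect genes were read from a list of 50, of which 40 were tested. BTG4, a maternal mRNA decay gene, had the highest mean of the list. It was lower in both SCNT libraries, at 5070 and 6040 FPKM (IVF) and 3330 and 4246 FPKM (SCNT), and did not pass (adjusted p = 0.373). Of the 40, 7 rose, against 3.02% of all tested genes, 0 fell and 33 did not pass. Their median log2 difference was 0.91, beside 0.39 for all 10303 genes. The difference was above 0 for 33 of the 40 and below 0 for 7, against 6781 and 3522 of all tested genes. Those that rose were ASTL, ZAR1L, KHDC3L, NLRP8, NLRP13, TRIM28 and ZFP57. Their SCNT levels spanned 3.59 FPKM (ZFP57, replicate 1) to 1566 FPKM (ZAR1L, replicate 2). ZFP57 was under 1 FPKM in both IVF libraries (0.438 and 0.0107 FPKM). The filter thus admitted it through SCNT embryos alone, which fixed the direction of its difference. The same held for NLRP5 (0.200 and 0.786 FPKM for IVF) and SOHLH1 (0.122 and 0.471 FPKM for IVF), which did not pass. The count of rises includes ZFP57, and the median includes all of these. The list was chosen with earlier results of these data known, so the count and the median describe it and test nothing. ASTL, the egg protease ovastacin, stood at 3.30 and 5.93 FPKM (IVF) and 34.9 and 43.2 FPKM (SCNT) (adjusted p = 0.0280). The count changed with each library left out, as did that of all tested genes. It was 4 after median centring, 3 after quantile normalization and 17 after rescaling to a common summed FPKM. Over all 10303 genes the counts in either direction were 396, 271 and 1327 in these 3 settings. The oocyte count was 0 with a pseudocount of 5 FPKM, without the filter on low values and with 1 FPKM required in all 4 libraries. LHX8, an oocyte homeobox gene of another class, stood at 31.8 and 34.5 FPKM (IVF) and 102 and 88.6 FPKM (SCNT) (adjusted p = 0.0611). GDF9, an oocyte growth factor gene, did not pass and stood at 509 and 404 FPKM (IVF) and 627 and 617 FPKM (SCNT) (adjusted p = 0.440). SEBOX had a larger log2 difference than each of the 7 that rose, which ranged from 2.02 at KHDC3L to 2.87 at ASTL.

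Markers of other cells were read in the same libraries. Cumulus and granulosa markers summed to 98.6 and 108 FPKM (IVF) and 79.7 and 116 FPKM (SCNT), with FSHR, AMH and INHA at 0 in all 4 libraries. Fibroblast markers summed to 144 and 135 FPKM (IVF) and 112 and 132 FPKM (SCNT). Of 12 fibroblast markers tested, TIMP1 and TAGLN rose, 0 fell and 10 did not pass, against 3.02% higher and 0.844% lower of all tested genes. Their median log2 difference was 0.80, beside 0.39 for all 10303 genes, and 8 of the 12 had a difference above 0. TIMP1 had 0.156 and 0.637 FPKM (IVF) and 11.2 and 12.9 FPKM (SCNT), and TAGLN 0.659 and 0.389 FPKM (IVF) and 4.85 and 4.94 FPKM (SCNT). Both were under 1 FPKM in the IVF libraries, so the filter admitted them through SCNT embryos alone. That fixed the direction of their difference, and the count of rises cannot be read against the share of all tested genes. Among the collagen genes, COL1A1 stayed under 1 FPKM in all 4 libraries. COL1A2 stood at 3.22 and 2.44 FPKM (IVF) and 6.41 and 6.20 FPKM (SCNT). COL3A1 stood at 0.185 and 0.126 FPKM (IVF) and 2.41 and 1.63 FPKM (SCNT) (adjusted p = 0.0550). It too was admitted through SCNT embryos alone, which fixed the direction of its difference. The median of 0.80 and the 8 of 12 above 0 include TIMP1, TAGLN and COL3A1, so neither can be read against all tested genes. The fibroblast count of 2 became 0 with a pseudocount of 5 FPKM, without the filter on low values and with 1 FPKM required in all 4 libraries. It was 1 after median centring, 1 after quantile normalization and 3 after rescaling to a common summed FPKM. It also changed with each library left out. None of 6 cumulus markers passed, of which STAR (38.8 to 58.0 FPKM) and HAS2 (17.9 to 29.4 FPKM) were highest. Of the sperm markers ODF2 alone was tested, and it did not pass. The summed cumulus levels overlapped between the groups. The fibroblast sum was lower in both SCNT libraries, but it turned on DCN, the matrix gene decorin, at 94.3 and 85.5 FPKM (IVF) and 33.9 and 39.5 FPKM (SCNT). Without DCN, left out after its values were seen, the other fibroblast markers summed to 50.1 and 49.2 FPKM (IVF) and 78.3 and 92.5 FPKM (SCNT). Higher in both SCNT libraries was a common pattern, seen in 46.9% of tested genes. The part of other cells in the SEBOX difference was not tested.

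The genes lying next to each member in the RefSeq gene order of goat (assembly ARS1.2) were read as well. ARGFX overlaps the span of FBXO40, a muscle F-box gene, in that annotation. FBXO40 stood at 20.8 and 27.9 FPKM (IVF) and 20.8 and 35.0 FPKM (SCNT), and so did not share the high value of IVF replicate 1. The counting setting for strand and overlap is not given in the sources used here. POLQ, a DNA polymerase gene on the other side, stood between 1.69 and 5.82 FPKM. HCLS1, the gene after FBXO40, stayed between 0.339 and 0.736 FPKM, and the pseudogene LOC102180537 was listed at 0 in both SCNT libraries and at 0.449 and 1.38 FPKM in those of IVF.

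DUXA lies beside ZIM3, a KRAB zinc finger gene, and this neighbour was abundant as well. ZIM3 stood at 214 and 53.6 FPKM (IVF) and 343 and 153 FPKM (SCNT) (log2 difference 1.09 ± 0.67 SE; adjusted p = 0.296). The IVF replicates were apart by 4.00 times at ZIM3 and by 6.44 times at DUXA, in the same direction, whereas the SCNT values of ZIM3 were not as close together as those of DUXA. AURKC, a meiotic kinase gene on the other side, followed LOC108638122 (0.662 to 4.37 FPKM) and was at 69.7 and 64.9 FPKM (IVF) and 79.0 and 101 FPKM (SCNT).

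The neighbours of the other members differed in level. Beside LEUTX, the galectin gene LGALS15 was listed at 0 in all 4 libraries, and LOC108637982, a lncRNA, and DYRK1B stayed between 0.114 and 0.810 FPKM. Beside OTX2, TMEM260 stood between 1.48 and 2.51 FPKM, PELI2 between 10.4 and 16.8 FPKM and the lncRNA LOC108636973 between 0.579 and 6.56 FPKM. Beside SEBOX, VTN was listed at 0 in all 4 libraries, and TMEM199 and SARM1 reached at most 1.14 FPKM. POLDIP2, the next gene after TMEM199, stood at 4.25 and 10.6 FPKM (IVF) and 13.2 and 35.1 FPKM (SCNT) (adjusted p = 0.130).

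For each member, the genes of most similar pattern were taken as those with the smallest Euclidean distance between centred log2(FPKM + 1) values over the 4 libraries, out of 8829 protein-coding genes with a symbol. With only 4 libraries, some genes lie close to any pattern. The nearest to ARGFX were MGP (distance 0.57), CCDC112 (0.60) and the ribosomal protein gene RPS29 (0.67). The nearest to DUXA were FBXO48 (0.61), USMG5 (0.63) and the ribosomal protein gene RPS13 (0.63). Those nearest to LEUTX were IFT22 (0.25), C15H11orf74 (0.29) and the ribosomal protein gene RPS20 (0.31).

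The 3 nearest to OTX2 were MRPL46 (0.24), the homeobox gene TGIF1 (0.24) and NOCT (0.27). TGIF1 stood at 3.81 and 0.746 FPKM (IVF) and 8.93 and 7.70 FPKM (SCNT). For SEBOX the nearest was SQSTM1, an autophagy receptor gene, at a distance of 0.14, with 0.167 and 1.80 FPKM (IVF) and 21.6 and 36.8 FPKM (SCNT), followed by EIF5A (0.68). Among the members themselves, ARGFX and DUXA were closest (1.32), then ARGFX and LEUTX (1.65), and ARGFX and SEBOX were farthest apart (6.23).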

How the data were processed

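The authors deposited FPKM values, with 1 column for each of the 4 8-cell libraries. Libraries were made by Smart-seq2 from lysed embryos and polyadenylated RNA, per the labels' protocols. Tools named in the submitters' processing notes are HTSeq, HISAT2 2.2.1 and fastp, with no role for each. For the build, the annotation and the scaling total the entry is: not given in the sources used here. No coordinates are printed. The lncRNA tables and the 4-cell libraries were not used here.

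The 10303 of 22107 entries with 2 or more libraries at 1 FPKM or above entered the test, a linear model with a variance trend (limma 3.58.1, R 4.3.3) on log2(FPKM + 1). Tests were two-sided, with Benjamini-Hochberg adjustment over all tested genes and a threshold of 0.05. The fit was run on simulated data with the same spread for all genes. Replicate gaps in these libraries differ between genes, so that run does not show how the fit performs on them. With the depth ratios, all 500 genes drawn (100.0%) gave whole read numbers to within 0.002, with numbers up to 20000 tried. Over 20 random draws of ratios wrong by 1 to 3% the share was 0.0% to 0.4%, but it was 86.4% with ratios off by exactly 1, 2 and 3%, where the lowest read numbers were 100.0 times higher at the median. A share of whole numbers alone therefore does not fix the ratios. The read numbers quoted are the smallest that fit, and counting intervals rest on them; a common multiple gives the same FPKM. Of 21869 names, 21829 matched the RefSeq table.

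Named genes are the 5 members, list genes that passed or had the highest levels, other list genes chosen after their values were seen (among them DPPA2, KLF17, KLF3, TFAP2C, NANOG, POU5F1, NOBOX, OTX1, CRX, DPRX, LHX8, GDF9, MBD3L1, DCN, COL1A2 and COL3A1), 2 neighbours on each side in gene order, and the 3 closest patterns. The results of 2 genes that this rule names are not reported here. Members and lists were chosen with earlier results of these data known. Alternatives covered the pseudocount, filter, scaling, variance trend, replicate block and each library left out.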

Additional observations from a re-analysis of the deposited data

How the results depend on the processing

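The count of 398 genes fell to 9 with a pseudocount of 5 FPKM. In limma it was 0 without the filter on low values (3661 at an unadjusted p under 0.05) and 0 with 1 FPKM required in all 4 libraries (2006). It was 1327 after rescaling each library to a summed FPKM of 1000000, and 46 to 3834 with 1 library left out. The split was 158 higher and 238 lower after median centring and 121 and 150 after quantile normalization. The median log2 difference of all tested genes was 0.39 as deposited, −0.10 after centring, −0.01 after quantile normalization and 0.44 after rescaling, and the 5 members kept their signs under all of these. SEBOX no longer passed with a pseudocount of 5 FPKM (2.72) or without the filter (3.93), and requiring 1 FPKM in all 4 libraries removed it. With 1 library left out the differences ranged from 3.23 to 4.63 for SEBOX, 1.002 to 2.61 for OTX2, −2.86 to −0.64 for ARGFX, −1.94 to 0.72 for DUXA and −1.53 to 0.11 for LEUTX; a lone library is then assumed to vary like the other group. The cause of these changes was not tested. The labels do not say that replicate numbers pair libraries, and the replicate gaps of IVF and SCNT correlated at 0.12 across genes. With the replicate number as a block, 1924 genes passed, and OTX2 passed at an unchanged log2 difference of 1.81 (adjusted p = 0.0321; 0.0321 to 0.559 over all alternatives). The block changed no other call of the 5. The alternatives for the gene lists were added after seeing the data. Only 13 reads lie behind the lowest SEBOX value.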
